A study of Mus musculus with 49 samples.

Results

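The 12 RiboTag libraries labelled male, 6 from D1 and 6 from D2 medium spiny neurons (MSNs) of the mouse nucleus accumbens (NAc), were compared for ribosome-associated RNA. They are the columns of the deposited count table that the study labels as RiboTag, M, and they make up 12 of the 49 samples of the series. The other RiboTag libraries, 5 D1 and 5 D2 libraries labelled female (F), were used as a separate set of mice. In them the differences as a set and some of the named genes were looked at again. The sorted-cell and sorted-nucleus libraries were not used here. Each library came from fresh tissue of a different mouse on a C57BL/6J background, with no treatment and no age given in the sources used here. D1 mice carried Drd1-cre and D2 mice carried Drd2-cre, and all of them carried the RiboTag allele Rpl22-loxPexon4loxP-exon4-HA, in which Cre swaps the last exon of the ribosomal protein gene Rpl22 for a copy that ends in an HA tag. Tagged ribosomes and the RNA bound to them are then pulled down with an antibody to HA. Every D1 library comes from 1 Cre line and every D2 library from another, so cell type and Cre line cannot be told apart, and Cre in any Drd1- or Drd2-expressing cell of the tissue, not only in MSNs, would tag its ribosomes.

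MSNs are the GABAergic projection neurons of the striatum. D1-MSNs carry the dopamine D1 receptor, which couples to stimulatory G proteins and raises cAMP, and release dynorphin and substance P, while D2-MSNs carry the inhibitory dopamine D2 receptor together with the stimulatory adenosine receptor Adora2a, and release enkephalin. The contrast asks which transcripts on the ribosomes differ between these cells. Log2 fold changes are D2 over D1, so a negative value means a higher level in the D1 libraries, and they come with their standard error (SE) and a Benjamini-Hochberg adjusted p from edgeR's quasi-likelihood test over all genes tested. Levels are counts-per-million (CPM) values scaled by TMM, a normalisation that is little affected by a few dominant genes, and the lowest, median and highest of the 6 libraries are given.

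The M libraries held 24076900 to 43089000 counts (to 6 digits), and 10 genes held 86.4% to 88.3% of them. Among them were CT010467.1, annotated as ribosomal RNA, and Gm42418 and AY036118, which overlap it and each other. Reads were given to every overlapping gene, so the totals and these shares count some reads more than once. These shares did not differ between D1 and D2 libraries beyond their spread (87.3% ± 0.72 and 87.6% ± 0.41, SD, n = 6 each, exact permutation p = 0.457, two-sided). All other genes shared the remainder, so levels in CPM are low throughout. Rpl22, the tagged gene itself, lay at 2.90 ± 0.31 CPM in D1 and 2.70 ± 0.37 CPM in D2 libraries, with a log2 fold change of -0.097 (SE 0.11, adjusted p = 0.686).

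The sex-chromosome transcripts went against the label in 6 of the 12 M libraries. Xist, the RNA that silences an X chromosome in female cells, exceeded the summed count of the Y-linked Ddx3y, Uty, Kdm5d and Eif2s3y in D1 replicates 1 to 4 and in D2 replicates 2 and 6. In D1 replicates 1, 2 and 3 there were 258, 55 and 160 Xist counts against 18, 1 and 9 Y counts. D1 replicate 4, with 76 Xist and 32 Y counts, and D2 replicate 6, with 86 and 60, carried a mixture of both, and D2 replicate 2 had 42 against 2. In D1 replicates 5 and 6 and D2 replicates 1, 3, 4 and 5 there were 1 to 17 Xist counts and 289 to 437 Y counts. All 10 F libraries held more Xist (90 to 402 counts) than Y counts (0 to 9). Because 4 of 6 D1 but 2 of 6 D2 libraries are concerned, results are given for all 12 libraries labelled male and, chosen after this was seen, without those 6 (2 D1 against 4 D2 libraries).

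**Figure D1:**
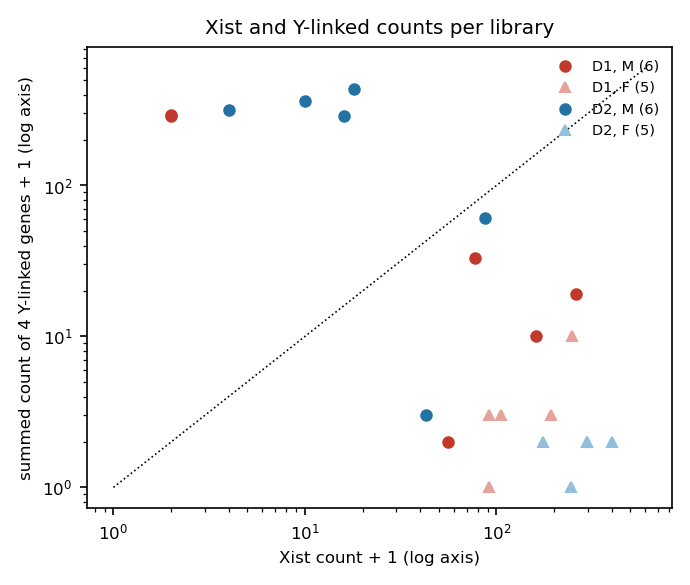
Xist counts (x axis) against the summed counts of Ddx3y, Uty, Kdm5d and Eif2s3y (y axis), both plus 1 and on log axes, for each RiboTag library, with circles for libraries labelled M, triangles for those labelled F and a dotted line where the counts are equal. 6 of the 12 circles lie below the line with the triangles, and D1 replicates 5 and 6 fall on the same spot at the upper left.

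Of 10724 genes tested, 225 were D1-enriched (2.10%) and 113 were D2-enriched (1.05%), where a differentially expressed gene (DEG) had an adjusted p of at most 0.05, a log2 fold change beyond 0.38 and a mean level above the lowest 25% of genes (1.67 CPM). An adjusted p of at most 0.05 alone was reached by 8.43% of genes. Most differences were small, with a median log2 size of 0.58 among the D1-enriched genes and of 0.49 among those enriched in D2, and 43 and 14 of them went beyond 1. The 6 and 6 libraries did not overlap for 115 of the D1-enriched and 73 of the D2-enriched DEGs, against 4.21% of all genes tested, or 2.41% with the D1 and 1.80% with the D2 libraries higher. Among DEGs, 209 D1-enriched and 97 D2-enriched ones were protein-coding. Without the 6 libraries whose sex-chromosome counts go against the label there were 175 D1-enriched and 158 D2-enriched DEGs, of which 129 and 72 were DEGs of the 12 libraries as well, and 224 of the 225 and 113 of the 113 kept their sign. Of the 187 named genes, 31 kept their sign but no longer reached an adjusted p of 0.05 in that smaller comparison. Exosc7 lost it as well and changed sign (0.25, adjusted p = 0.703).

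The dopamine receptors that define the cells, and that the Cre lines are built on, separated the libraries. Drd1 lay between 21.98 and 31.8 CPM (median 25.1) in the D1 libraries and between 4.18 and 8.05 CPM (median 7.20) in the D2 libraries. Drd2 lay between 4.33 and 9.25 CPM (median 7.06) in the D1 libraries and between 39.6 and 52.5 CPM (median 45.9) in the D2 libraries. For neither gene did a D1 library reach the range of the D2 libraries. The log2 fold change was -1.94 (SE 0.11, adjusted p = 1.08e-11) for Drd1 and 2.70 (SE 0.11, adjusted p = 1.12e-14) for Drd2, and without the 6 libraries it was -1.93 (adjusted p = 2.53e-07) and 3.01 (adjusted p = 2.14e-10). Each receptor was still counted at a low level in every library of the other cell type. In bulk libraries such as these, fewer cells of a type and less RNA per cell cannot be told apart.

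The peptide genes separated the libraries as well. Penk, the precursor of enkephalin, lay between 74.1 and 196 CPM (median 158) in D1 and between 632 and 732 CPM (median 728) in D2 libraries (log2 fold change 2.30, SE 0.15, adjusted p = 1.87e-10). Pdyn, the precursor of dynorphin, lay between 25.9 and 37.5 CPM (median 28.9) in D1 and between 4.09 and 6.67 CPM (median 4.45) in D2 libraries (-2.61, SE 0.10, adjusted p = 7.64e-15). Tac1, which encodes substance P, lay between 13.95 and 16.7 CPM (median 15.3) and between 4.601 and 6.96 CPM (median 6.09) (-1.34, SE 0.078, adjusted p = 2.20e-11). All 3 separated the groups without overlap, and the Penk level varied widely among the D1 libraries. Penk overlaps the antisense gene A830012C17Rik, and the counting did not use strand. The log2 fold changes without the 6 libraries were 2.54 (adjusted p = 2.05e-07) for Penk, -2.51 (adjusted p = 2.14e-10) for Pdyn and -1.38 (adjusted p = 4.91e-07) for Tac1.

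Other markers of D1-MSNs moved with Drd1 and Pdyn. Chrm4, the muscarinic M4 receptor that opposes D1 signalling, lay between 3.10 and 5.33 CPM (median 4.08) in D1 and between 1.27 and 2.14 CPM (median 1.44) in D2 libraries (-1.39, SE 0.14, adjusted p = 1.37e-07). Slc35d3, an orphan transporter needed for D1 receptor traffic, and Zfp521, a zinc finger transcription factor, had a log2 fold change of -1.75 (SE 0.14, adjusted p = 4.30e-09) and -0.99 (SE 0.13, adjusted p = 1.10e-05). The transcription factors Isl1 and Ebf1, which specify direct-pathway neurons, passed the test with log2 fold changes of -1.97 (SE 0.19, adjusted p = 1.38e-07) and -1.22 (SE 0.22, adjusted p = 0.000474) but lay below the level threshold. Thus 6 of the 8 tested markers of the list were D1-enriched DEGs, against 2.10% of all genes tested. Eya1, the remaining marker, was too low to be tested.

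Of the 8 tested D2-MSN markers, 7 were D2-enriched DEGs, against 1.05% of all genes tested. Adora2a, the stimulatory adenosine receptor of striatum, lay between 4.25 and 10.5 CPM (median 8.42) in D1 and between 37.3 and 43.8 CPM (median 42.3) in D2 libraries (2.42, SE 0.13, adjusted p = 2.83e-12), and its log2 fold change without the 6 libraries was 2.62 (adjusted p = 1.61e-08). Gpr6, an orphan receptor with constitutive activity toward cAMP, and Sp9, a transcription factor required for the D2 lineage, rose by 2.04 (SE 0.13, adjusted p = 1.87e-10) and 1.47 (SE 0.11, adjusted p = 2.99e-09). Grik3, a kainate receptor subunit, and Plxdc1, a plexin domain protein, rose by 0.95 (SE 0.067, adjusted p = 6.03e-10) and 1.11 (SE 0.14, adjusted p = 7.22e-06). These genes were higher in every D2 library than in any D1 library. Upb1, an enzyme of pyrimidine breakdown, lay between 0.324 and 1.15 CPM (median 0.557) and between 0.590 and 1.28 CPM (median 1.16) and did not pass the test (0.73, SE 0.26, adjusted p = 0.0923). In the F libraries Upb1 did pass it, with a log2 fold change of 2.43 (adjusted p = 8.96e-05), but was not a DEG. Of the 16 tested markers of both cell types, 13 were thus DEGs in the direction of the library labels, where 3.15% of all genes tested were DEGs in either direction.

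**Figure D2:**
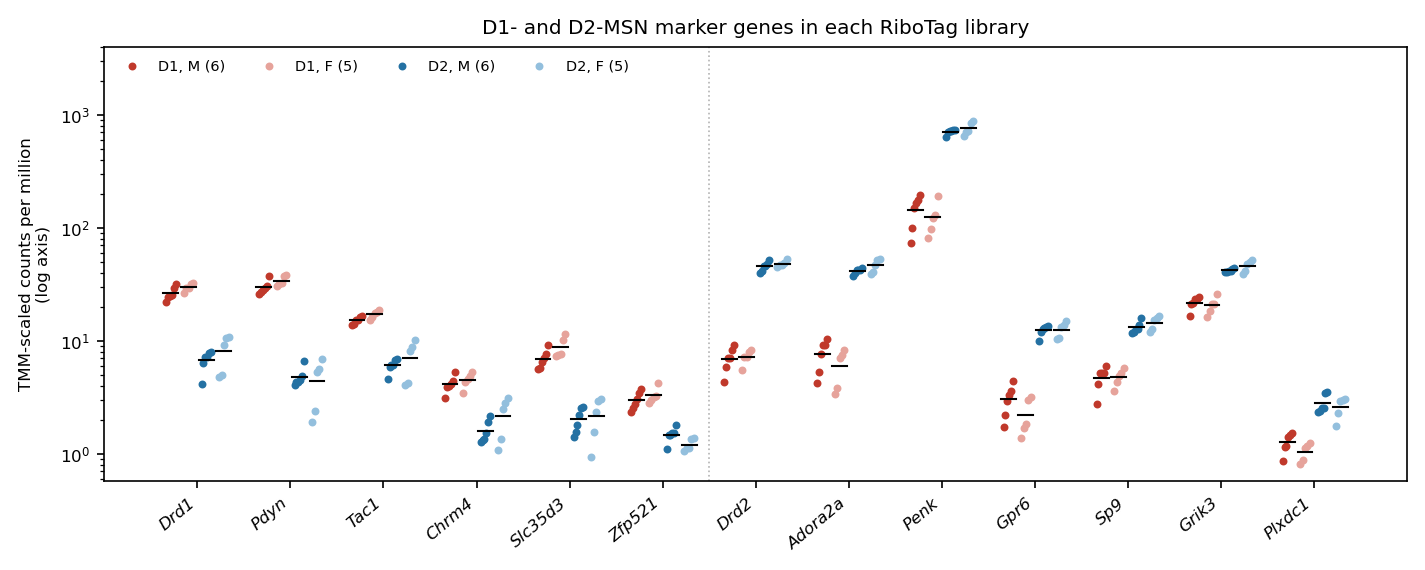
TMM-scaled CPM (log axis) of the 13 D1- and D2-MSN markers that were DEGs, in each RiboTag library (points) with the group mean (bar), for D1 and D2 libraries labelled M (6 each) and F (5 each). The D1 and D2 libraries labelled M do not overlap for any of the 13 genes, and Penk has the highest levels, up to 732 CPM in the M and 892 CPM in the F libraries.

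The 250 bases before the annotated transcription start are shown for 4 of these genes, since their transcripts set the groups apart and regulatory DNA of Drd1 and Drd2 drives Cre in the lines used. The sequences are from RefSeq on GRCm38.p6, on the strand of the gene, with every TGACG (the core of a cAMP response element) and GGGCGG (a GC box) on either strand in capitals, and capitals run together where matches touch.
Drd1, downstream start, chr13:54054781-54055030, minus strand: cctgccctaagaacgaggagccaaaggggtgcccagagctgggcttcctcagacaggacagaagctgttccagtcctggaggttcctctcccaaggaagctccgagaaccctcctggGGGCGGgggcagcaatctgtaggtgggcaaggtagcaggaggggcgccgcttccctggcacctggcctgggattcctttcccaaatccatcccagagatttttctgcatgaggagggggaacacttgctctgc
Tac1, chr6:7554811-7555060, plus strand: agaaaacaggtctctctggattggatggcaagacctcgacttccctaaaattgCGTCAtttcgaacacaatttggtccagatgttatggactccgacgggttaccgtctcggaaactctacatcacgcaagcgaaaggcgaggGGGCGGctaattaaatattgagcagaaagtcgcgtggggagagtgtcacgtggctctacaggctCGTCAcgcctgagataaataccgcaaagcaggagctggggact
Drd2, chr9:49340153-49340402, plus strand: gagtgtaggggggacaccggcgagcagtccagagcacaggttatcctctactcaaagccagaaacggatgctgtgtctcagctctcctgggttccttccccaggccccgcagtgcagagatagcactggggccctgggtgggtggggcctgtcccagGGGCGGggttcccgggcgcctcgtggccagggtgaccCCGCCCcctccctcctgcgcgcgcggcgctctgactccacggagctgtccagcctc
Gpr6, chr10:41072291-41072540, minus strand: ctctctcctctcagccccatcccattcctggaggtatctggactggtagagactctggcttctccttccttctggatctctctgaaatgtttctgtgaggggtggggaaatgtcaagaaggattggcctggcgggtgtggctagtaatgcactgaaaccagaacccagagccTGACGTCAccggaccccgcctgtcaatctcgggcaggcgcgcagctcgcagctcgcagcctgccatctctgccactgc
The Drd1 window held 1 GC box and no TGACG, while the window before its other start held neither. Tac1 held 2 copies of TGACG and 1 GC box, and Drd2 held 2 GC boxes. Gpr6 held the full palindromic element TGACGTCA, which contains TGACG on both strands and begins 78 bases before the start. Of all 32851 promoter windows of this length in the table, 17.8% held TGACG, 32.7% GGGCGG and 1.55% TGACGTCA. Among windows of D1-enriched DEGs these shares were 23.8%, 53.7% and 2.8% (214 windows of 152 genes), and among those of D2-enriched DEGs 18.1%, 56.4% and 1.06% (94 windows of 73 genes), beside 27.2%, 57.1% and 2.67% for all genes tested. Matches are letters in a window and do not show that a factor binds.

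The gene with the widest difference was Ndnf, which encodes a secreted neurotrophic protein (chr6:65671590-65712326, GRCm38). It lay between 0.405 and 0.886 CPM (median 0.490) in the D1 libraries and between 12.2 and 17.7 CPM (median 16.0) in the D2 libraries, with a log2 fold change of 4.86 (SE 0.13, adjusted p = 9.90e-18). Without the 6 libraries the log2 fold change was 4.46 (adjusted p = 2.14e-10), and in the F libraries it was 4.65 (adjusted p = 5.25e-11). Ndnf thus stood further apart than either dopamine receptor.

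A group of purinergic genes was higher in D2 libraries besides Adora2a. P2ry1, an ADP receptor, lay between 1.73 and 3.48 CPM (median 2.23) in D1 and between 7.94 and 12.3 CPM (median 11.4) in D2 libraries (2.20, SE 0.14, adjusted p = 7.97e-11). Nt5e, the ecto-nucleotidase that makes adenosine from AMP outside the cell, lay between 1.01 and 1.49 CPM (median 1.13) and between 3.10 and 4.35 CPM (median 3.98) (1.73, SE 0.12, adjusted p = 2.22e-10). Adk, the kinase that clears adenosine inside the cell, lay between 1.62 and 3.07 CPM (median 2.28) and between 3.39 and 4.30 CPM (median 3.83) (0.68, SE 0.12, adjusted p = 0.000369). None of the 3 overlapped between the groups. In a list of 22 purinergic genes written after these values were seen, 10 were tested, and 4 were D2-enriched DEGs, beside 1.05% of all genes tested. By edgeR 0 were D1-enriched DEGs, by DESeq2 0 as well, and 1 was higher in D1 libraries at an unadjusted p under 0.05. Adora1, the inhibitory adenosine A1 receptor, did not pass the test (-0.034, SE 0.065, adjusted p = 0.844), with between 11.2 and 12.8 CPM (median 12.4) in D1 and between 10.7 and 14.1 CPM (median 11.5) in D2 libraries. With the 6 libraries left out, the log2 fold changes were 2.30 (adjusted p = 4.91e-07) for P2ry1, 1.93 (adjusted p = 8.26e-07) for Nt5e and 1.05 (adjusted p = 0.000632) for Adk.

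The opioid genes divided between the D1 and D2 libraries, again in a list drawn up with the values known. Besides Penk in D2 libraries and Pdyn in D1 libraries, Oprd1, the delta opioid receptor to which enkephalin binds, lay between 0.721 and 1.82 CPM (median 1.20) in D1 and between 2.85 and 4.38 CPM (median 3.89) in D2 libraries (1.67, SE 0.15, adjusted p = 4.22e-08). Oprk1, the kappa receptor to which dynorphin binds, lay between 2.97 and 4.37 CPM (median 3.68) and between 2.39 and 2.95 CPM (median 2.64) (-0.45, SE 0.10, adjusted p = 0.00587). Oprl1, the nociceptin receptor, was D1-enriched by a similar amount (-0.45, SE 0.11, adjusted p = 0.00677). The Oprd1 libraries lay well apart, while Oprk1 and Oprl1 differed little and, without the 6 libraries, had log2 fold changes of -0.22 (adjusted p = 0.508) and -0.31 (adjusted p = 0.430). Oprm1, the mu receptor, had a log2 fold change of 0.15 (SE 0.076, adjusted p = 0.279).

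Among the 10 neuropeptide genes tested, 5 were D1-enriched and 2 were D2-enriched DEGs, which is 70.0% against 3.15% of all genes tested. The list was chosen with earlier results known and holds the markers Penk, Pdyn and Tac1, so this share is no test of neuropeptides. Nucb2, the precursor of nesfatin, joined Penk in the D2 libraries (0.63, SE 0.071, adjusted p = 1.13e-06). Cck, Sst and Npy joined Pdyn and Tac1 in the D1 libraries. Cck, a peptide of cortical neurons, lay between 1.42 and 4.79 CPM (median 2.73) and between 0.324 and 1.61 CPM (median 0.675) (-1.96, SE 0.27, adjusted p = 2.22e-05), Sst, a peptide of interneurons, lay between 7.32 and 9.47 CPM (median 8.51) and between 2.84 and 6.22 CPM (median 4.21) (-0.95, SE 0.12, adjusted p = 4.29e-06), and Npy, which marks the same interneurons, had a log2 fold change of -0.58 (SE 0.18, adjusted p = 0.0437). The Npy groups overlapped, and without the 6 libraries its log2 fold change was -0.49 (adjusted p = 0.399). Cartpt and Nts, peptides of accumbens neurons, had log2 fold changes of -0.027 (adjusted p = 0.959) and 0.28 (adjusted p = 0.432). Of 14 tested genes for peptide processing and dense-core granules, 2 (14.3%, against 2.10% of all genes tested) were D1-enriched: Cadps2, which primes granules for release (-1.21, SE 0.11, adjusted p = 3.05e-08), and Chga, a granule core protein (-0.53, SE 0.072, adjusted p = 1.54e-05). The abundant Chgb, Sort1 and Cpe passed the test below the fold threshold with log2 fold changes of -0.20 (SE 0.049, adjusted p = 0.0114), -0.22 (SE 0.052, adjusted p = 0.00698) and -0.23 (SE 0.049, adjusted p = 0.00319), and Scg2 did not pass it (-0.15, SE 0.062, adjusted p = 0.163). Chgb, Sort1 and Cpe had log2 fold changes of -0.19 (adjusted p = 0.256), -0.15 (adjusted p = 0.362) and -0.31 (adjusted p = 0.0220) without the 6 libraries.

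In the list of neuromodulator receptors, 4 of 32 tested genes were D1-enriched and 4 were D2-enriched (25% called, against 3.15% of all genes tested). This list was also chosen with earlier results known. It holds the markers Drd1, Chrm4, Drd2 and Adora2a, so the share is no test of receptors. Htr2c, the serotonin 2C receptor, was the D2-enriched member not yet named and lay between 9.87 and 14.2 CPM (median 11.6) in D1 and between 15.6 and 19.6 CPM (median 18.2) in D2 libraries (0.60, SE 0.077, adjusted p = 6.65e-06). Without the 6 libraries its log2 fold change was 0.35 (adjusted p = 0.0467). Gabbr2, a GABA-B receptor subunit, passed the test with a log2 fold change under the threshold (-0.35, SE 0.073, adjusted p = 0.00228), and Gabbr1 did not pass it (0.070, SE 0.039, adjusted p = 0.352). Gabbr2 had a log2 fold change of -0.42 (adjusted p = 0.0534) without the 6 libraries. Of 19 tested orphan receptors and relatives, 4 were D2-enriched and 1 was D1-enriched (26.3% called, against the same 3.15%). The marker Gpr6 was among them and the list was chosen in the same way, so this share is no test either. Gpr26 was the D1-enriched member (-0.73, SE 0.097, adjusted p = 1.20e-05). Gprin3, a G protein-interacting protein, and Gpr149 were D2-enriched by 0.48 (SE 0.078, adjusted p = 0.00019) and 0.44 (SE 0.11, adjusted p = 0.0135).

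Genes for signalling below the receptors differed between the D1 and D2 libraries. Markers of other neurons differed between these libraries too, as given further on, and their part here was not tested. Of 66 tested genes for cAMP, G proteins and their regulators, 6 were D1-enriched and 4 were D2-enriched DEGs (15.2%, against 3.15% of all genes tested). The G protein beta and gamma subunits Gnb4, Gng4 and Gng2 were D1-enriched with log2 fold changes of -0.84 (SE 0.11, adjusted p = 5.04e-06), -0.89 (SE 0.13, adjusted p = 3.68e-05) and -0.71 (SE 0.11, adjusted p = 0.000134), and Gnb5, the beta subunit that pairs with RGS proteins, was D2-enriched (0.60, SE 0.053, adjusted p = 2.29e-08). Gnb5 lay between 17.1 and 19.3 CPM (median 18.4) in D1 and between 24.7 and 29.1 CPM (median 28.5) in D2 libraries. Adcy2, an adenylyl cyclase, and Pde1a, a phosphodiesterase, were D1-enriched with log2 fold changes of -0.62 (SE 0.099, adjusted p = 0.000146) and -0.50 (SE 0.080, adjusted p = 0.000138). Rgs10, which speeds the shut-off of G proteins, and Arpp19, a phosphatase inhibitor, were D2-enriched with log2 fold changes of 0.71 (SE 0.11, adjusted p = 0.000166) and 0.51 (SE 0.066, adjusted p = 8.72e-06). Gnai1, an inhibitory G protein subunit, was D1-enriched as well (-0.40, adjusted p = 3.44e-06), and Rasd2, a small GTPase of striatum, D2-enriched. Adcy5, the main striatal adenylyl cyclase, passed the test with a log2 fold change of only 0.19 (SE 0.055, adjusted p = 0.0326). Its log2 fold change without the 6 libraries was 0.20 (adjusted p = 0.206). Gucy1a1, a subunit of the soluble guanylyl cyclase that nitric oxide activates and a member of none of the lists, lay between 16.9 and 30.2 CPM (median 26.0) in D1 and between 42.8 and 52.0 CPM (median 47.9) in D2 libraries (0.92, SE 0.089, adjusted p = 1.19e-07).

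Genes that D1- and D2-MSNs share leaned to the D2 libraries. Of 22 tested, 4 were D2-enriched DEGs (18.2%, against 1.05% of all genes tested), and by edgeR and by DESeq2 0 were D1-enriched. At an unadjusted p under 0.05, 20 were higher in D2 and 0 in D1 libraries, and the median log2 fold change was 0.23 against 0.0013 over all genes. Rasd2 and the transcription factors Foxp1 and Rxrg were among them, with log2 fold changes of 0.49 (SE 0.071, adjusted p = 4.16e-05), 0.46 (SE 0.058, adjusted p = 5.29e-06) and 0.41 (SE 0.090, adjusted p = 0.00424). A further 11 members had an adjusted p of at most 0.05 and a log2 fold change under the threshold, among them Pde10a, the striatal phosphodiesterase (0.26, SE 0.072, adjusted p = 0.0263), and Gnal, the stimulatory G protein of striatum (0.22, SE 0.042, adjusted p = 0.000917). Pde10a and Gnal had log2 fold changes of 0.32 (adjusted p = 0.0976) and 0.25 (adjusted p = 0.0407) without the 6 libraries. Pde1b did not pass the test (0.13, SE 0.056, adjusted p = 0.207). Markers of cortical and other neurons were higher in the D1 libraries, as given further on, and their part in this lean was not tested.

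Of 22 tested glutamate receptor genes, Grik3 was the only DEG (4.55%, against 3.15% of all genes tested). Gria2 passed the test with a log2 fold change under the threshold, 0.14 (SE 0.043, adjusted p = 0.0437), and the other abundant members Grin2b, Gria1 and Grm5 had log2 fold changes of 0.11 (SE 0.045, adjusted p = 0.183), 0.11 (SE 0.057, adjusted p = 0.296) and 0.16 (SE 0.053, adjusted p = 0.0624). Gria2 no longer passed it without the 6 libraries, with a log2 fold change of 0.067 (adjusted p = 0.706). Of the 19 tested genes for GABA receptors and handling, 0 were DEGs by edgeR and 0 by DESeq2, while 4 reached an adjusted p of at most 0.05 with edgeR and 7 an unadjusted p under 0.05, 5 of them higher in D2 libraries. Gad1 and Gad2, which make GABA, had log2 fold changes of 0.15 (SE 0.056, adjusted p = 0.116) and 0.057 (SE 0.050, adjusted p = 0.588). Reads on Gphn, the gene of an inhibitory synapse scaffold, lay between 5251 and 6742 CPM over the 12 libraries, with a log2 fold change of -0.11 (SE 0.051, adjusted p = 0.249). Per kb of exon the D1 mean was 1701 CPM for Gphn and 6.49 CPM for Gad1. Whole gene bodies were counted without strand, and whether these reads are Gphn mRNA was not tested.

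Of 58 tested potassium channel genes, 7 were D1-enriched and 2 were D2-enriched, where 66.6% of all DEGs were D1-enriched. DEGs made up 15.5% of the list, against 3.15% of all genes tested. The inward rectifiers Kcnj6, Kcnj3 and Kcnj9, which G proteins open, were D1-enriched with log2 fold changes of -1.21 (SE 0.15, adjusted p = 4.51e-06), -0.67 (SE 0.11, adjusted p = 0.000258) and -0.59 (SE 0.087, adjusted p = 5.01e-05), as were the voltage-gated Kcnc2 and Kcna6 with log2 fold changes of -0.74 (SE 0.095, adjusted p = 6.65e-06) and -0.72 (SE 0.089, adjusted p = 4.00e-06). Kcnj6 lay between 5.37 and 7.09 CPM (median 6.26) in D1 and between 1.69 and 3.88 CPM (median 2.27) in D2 libraries, without overlap. Kcnk2, a leak channel, was D2-enriched, with between 10.7 and 15.5 CPM (median 13.2) in D1 and between 18.99 and 22.9 CPM (median 20.4) in D2 libraries (0.64, SE 0.073, adjusted p = 1.36e-06). Of 36 tested calcium and sodium channel genes, Cacna1g and Cacnb3 were D1-enriched with log2 fold changes of -0.71 (SE 0.15, adjusted p = 0.00298) and -0.45 (SE 0.077, adjusted p = 0.000314) and Cacna2d2, an auxiliary subunit, was D2-enriched (0.76, SE 0.077, adjusted p = 1.99e-07). Cacna1g and Cacnb3 had log2 fold changes of -0.54 (adjusted p = 0.152) and -0.32 (adjusted p = 0.162) without the 6 libraries. DEGs made up 8.33% of the calcium and sodium channel genes, against 3.15% of all genes tested.

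Of 38 tested cytoskeletal and adaptor genes, 7 were D1-enriched, while 0 were D2-enriched by edgeR and by DESeq2 and 2 were higher in D2 libraries at an unadjusted p under 0.05. DEGs made up 18.4% of this list, against 3.15% of all genes tested. Stmn1, a microtubule-destabilising protein of growing neurites, lay between 14.1 and 23.9 CPM (median 22.5) in D1 and between 7.28 and 11.3 CPM (median 8.93) in D2 libraries (-1.18, SE 0.12, adjusted p = 1.84e-07), and Stmn2 had a log2 fold change of -0.95 (SE 0.12, adjusted p = 4.36e-06). The neurofilament genes Nefl and Nefm had a log2 fold change of -0.64 (SE 0.090, adjusted p = 2.36e-05) and -0.49 (SE 0.13, adjusted p = 0.0160), but D2 replicate 3 lay at 44.4 CPM for Nefl and 112.7 CPM for Nefm, far above the other D2 libraries. Nefm no longer passed the test without the 6 libraries, with a log2 fold change of -0.36 (adjusted p = 0.391), nor with DESeq2 (adjusted p = 0.0763). Map1b, an abundant microtubule-associated protein, was higher in every D1 than in any D2 library, below the fold threshold (-0.31, SE 0.051, adjusted p = 0.000202). The abundant Map1a, Map2 and Actb had log2 fold changes of -0.14 (SE 0.045, adjusted p = 0.0629), 0.043 (SE 0.046, adjusted p = 0.675) and 0.13 (SE 0.044, adjusted p = 0.0793). Of 53 tested genes for synaptic vesicles and release, 9 were D1-enriched and 2 were D2-enriched (20.8% called, against the same 3.15%). Slc17a7, the vesicular glutamate transporter of cortical neurons, led them (-2.65, SE 0.27, adjusted p = 2.14e-07), followed by Syt13, Stx1a and Sv2b with log2 fold changes of -0.84 (SE 0.11, adjusted p = 6.26e-06), -0.71 (SE 0.096, adjusted p = 1.53e-05) and -0.56 (SE 0.083, adjusted p = 5.74e-05). Nrxn2, a presynaptic adhesion protein, was D2-enriched (0.54, SE 0.060, adjusted p = 7.32e-07) without overlap between the groups. Markers of cells that use Slc17a7 moved with these lists, as given further on. Their part in them was not tested.

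Guidance and adhesion genes were split, with 7 of 75 tested D1-enriched and 5 D2-enriched (16% called, against 3.15% of all genes tested). Ntng2, a netrin-G, and Cntnap3, a contactin-associated protein, were D1-enriched with log2 fold changes of -1.74 (SE 0.17, adjusted p = 1.05e-07) and -1.32 (SE 0.11, adjusted p = 6.45e-09), and Unc5d, a netrin receptor, was D2-enriched (0.83, SE 0.098, adjusted p = 2.32e-06). Cntnap3 lay between 5.51 and 7.10 CPM (median 6.33) in D1 and between 1.91 and 3.05 CPM (median 2.55) in D2 libraries. Plxna1 and Nrp2, semaphorin receptors, were D1-enriched with log2 fold changes of -0.65 (SE 0.11, adjusted p = 0.000334) and -0.50 (SE 0.093, adjusted p = 0.000764), and without the 6 libraries Nrp2 no longer passed the test, with a log2 fold change of -0.24 (adjusted p = 0.334). Ptprm, a receptor phosphatase that binds its like on other cells and was in none of the lists, was D2-enriched (1.18, SE 0.091, adjusted p = 2.99e-09), with between 6.27 and 10.4 CPM (median 8.84) in D1 and between 17.2 and 21.7 CPM (median 19.97) in D2 libraries. Gfra1 and Gfra2, receptors for GDNF family ligands, were D1-enriched with log2 fold changes of -1.09 (SE 0.10, adjusted p = 9.52e-08) and -0.77 (SE 0.12, adjusted p = 7.45e-05), and without the 6 libraries Gfra2 no longer passed the test, with a log2 fold change of -0.48 (adjusted p = 0.126). Ret, with which they signal, was too low to be tested, at 0.23 ± 0.13 CPM in D1 and 0.21 ± 0.069 CPM in D2 libraries (SD, n = 6 each).

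Of 63 tested transcription factors, 6 were D1-enriched and 7 were D2-enriched (20.6% called, against 3.15% of all genes tested). The list was chosen with earlier results known and holds the markers Zfp521 and Sp9, so the share is no test of transcription factors. Six3, a homeobox factor of the D2 lineage, lay between 6.79 and 9.49 CPM (median 7.91) in D1 and between 11.8 and 13.5 CPM (median 13.0) in D2 libraries (0.67, SE 0.073, adjusted p = 7.32e-07). Id4 and Zfhx3 were D2-enriched as well with log2 fold changes of 0.48 (SE 0.095, adjusted p = 0.00163) and 0.47 (SE 0.090, adjusted p = 0.000967), and without the 6 libraries they had log2 fold changes of 0.25 (adjusted p = 0.3802) and 0.35 (adjusted p = 0.179). On the D1 side, Nr4a2, a factor of cortical projection neurons, and Satb1 were enriched with log2 fold changes of -3.36 (SE 0.22, adjusted p = 1.87e-10) and -1.07 (SE 0.12, adjusted p = 6.86e-07). Nr4a2 was also the only DEG among 22 tested immediate early genes (4.55%, near the 3.15% of all genes tested). Homer1, Egr1, Egr3 and Per1 had log2 fold changes of 0.12 (SE 0.084, adjusted p = 0.480), 0.050 (SE 0.12, adjusted p = 0.887), 0.13 (SE 0.083, adjusted p = 0.430) and 0.17 (SE 0.089, adjusted p = 0.316). Of 22 tested heat shock and chaperone genes, Hspa2 was the only DEG, which is again 4.55%. It was D1-enriched (-0.38, SE 0.11, adjusted p = 0.0260), with a log2 fold change of -0.34 (adjusted p = 0.224) without the 6 libraries.

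Among genes of accumbens subregions and striatal compartments, 3 of 25 tested were DEGs (12%, against 3.15% of all genes tested). Dlk1, an imprinted Notch-like ligand, lay between 13.8 and 16.9 CPM (median 14.9) in D1 and between 4.67 and 8.26 CPM (median 5.10) in D2 libraries (-1.42, SE 0.11, adjusted p = 1.70e-09). Cpne4, a copine, was D1-enriched (-0.56, SE 0.098, adjusted p = 0.000381), with a log2 fold change of -0.41 (adjusted p = 0.0860) without the 6 libraries, and Id4 was D2-enriched. Wfs1, an endoplasmic reticulum protein, passed the test below the fold threshold (-0.34, SE 0.071, adjusted p = 0.00252). Its log2 fold change without the 6 libraries was -0.33 (adjusted p = 0.128).

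**Figure D3:**
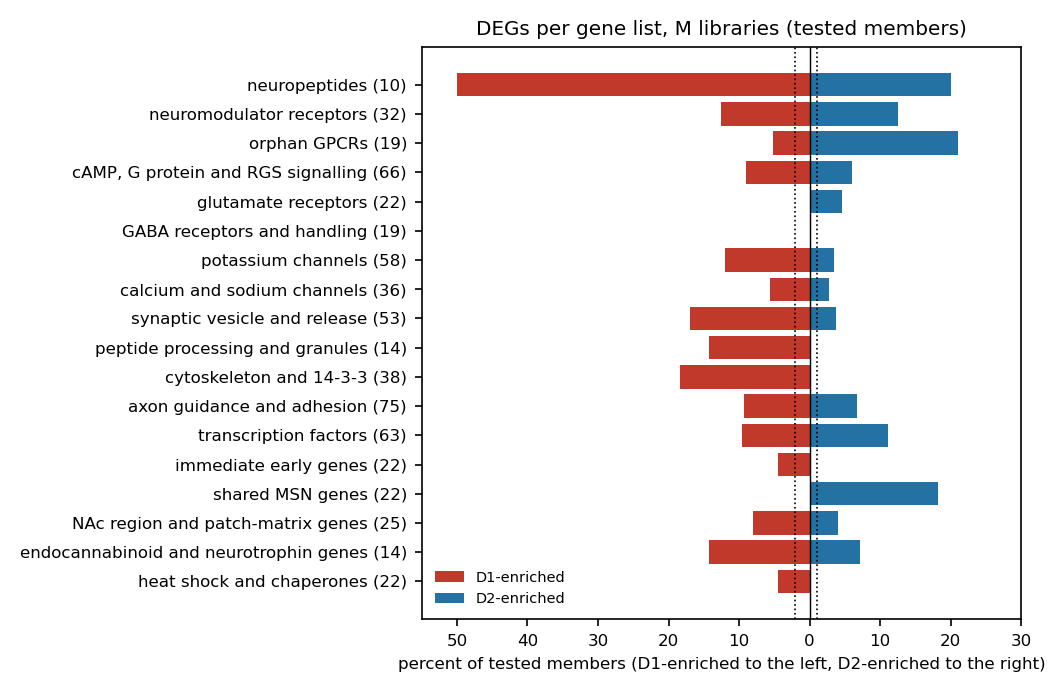
Percent of the tested members of each gene list (number in brackets) that were D1-enriched (red, to the left) or D2-enriched (blue, to the right) in the M libraries. Dotted lines mark the 2.10% and 1.05% of all genes tested, and Slc17a7, Nr4a2 and Id4 among others stand in more than 1 list. The lists were chosen with earlier results known and some hold cell type markers, so the shares are no test.

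Of 8 tested genes beside Drd1 and Drd2, from a list of 12, 3 passed the test (8.43% of all genes tested did), each in the direction of the receptor beside it. Sfxn1, a mitochondrial carrier gene next to Drd1, lay between 8.66 and 10.6 CPM (median 9.76) in D1 and between 1.81 and 2.31 CPM (median 2.06) in D2 libraries (-2.23, SE 0.085, adjusted p = 7.64e-15). Ankk1, a kinase gene next to Drd2, lay between 0.252 and 0.701 CPM (median 0.611) in D1 and between 1.76 and 3.57 CPM (median 3.00) in D2 libraries (2.28, SE 0.20, adjusted p = 2.71e-08). Ttc12, the next gene beyond Ankk1, had a log2 fold change of 2.41 (SE 0.21, adjusted p = 2.71e-08) at a level below the threshold. All 3 differed without overlap between the libraries, and in the F libraries their log2 fold changes were -2.34 (adjusted p = 4.18e-12), 2.59 (adjusted p = 8.29e-08) and 2.75 (adjusted p = 2.17e-07). Thoc3 and Cplx2 on the Drd1 side and Ncam1, Zw10 and Usp28 on the Drd2 side, the other 5, did not pass it. Whether the differences belong to the cell types or to DNA carried by the Cre lines cannot be told apart.

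Markers of other cells were not equal between the groups. The summed level of 9 markers of cortical and other glutamatergic neurons was 27.3 to 57.1 CPM (median 41.3) in D1 libraries and 7.91 to 20.1 CPM (median 12.1) in D2 libraries, a ratio of 3.30 (exact permutation test over all splits, two-sided, p = 0.00216, the smallest it can give, and 0.00563 after Benjamini-Hochberg adjustment over 13 summaries). Slc17a7 lay between 13.0 and 32.0 CPM (median 21.8) in D1 and between 0.648 and 7.56 CPM (median 2.99) in D2 libraries and, like Tbr1 (-2.38, SE 0.29, adjusted p = 3.03e-06), was a D1-enriched DEG. Neurod2, Neurod6 and Nrn1 passed the test below the level threshold, and Cux2 had a log2 fold change of -0.16 (SE 0.084, adjusted p = 0.312). The gene with the largest D1-enriched difference was Ccn2, a matrix protein known from the deepest cortical layer, at between 2.14 and 8.54 CPM (median 4.65) in D1 and between 0.0324 and 0.429 CPM (median 0.147) in D2 libraries (-4.40, SE 0.34, adjusted p = 3.11e-09). It shares reads with Gm15270, which overlaps it. Scube1, which encodes a secreted and membrane protein, and Vxn were also among the 15 D1-enriched genes with the largest non-overlapping differences, with log2 fold changes of -2.06 (SE 0.16, adjusted p = 4.30e-09) and -1.76 (SE 0.21, adjusted p = 3.31e-06). In a list of 10 genes of deep cortex and claustrum, drawn up after Ccn2 was seen, 9 were tested. Ccn2, Nr4a2 and Ntng2 were D1-enriched DEGs, which is 33.3% against 2.10% of all genes tested. Cplx3, Nxph3 and Rprm passed the test below the level threshold. Foxp2 and Tle4 passed it below the fold threshold, Foxp2 higher in D1 (-0.29, SE 0.075, adjusted p = 0.0155) and Tle4 higher in D2 libraries (0.32, SE 0.054, adjusted p = 0.000242). Synpr did not pass it. Foxp2, Tle4 and Synpr had log2 fold changes of -0.078 (adjusted p = 0.736), 0.30 (adjusted p = 0.0761) and 0.11 (adjusted p = 0.719) without the 6 libraries.

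Markers of GABAergic interneurons summed to 23.2 to 27.8 CPM in D1 and 12.2 to 20.4 CPM in D2 libraries, a ratio of 1.59 (exact permutation p = 0.00216, adjusted 0.00563). Of the 13 markers, 5 were tested. Sst, Nos1, the neuronal nitric oxide synthase (-0.77, SE 0.095, adjusted p = 3.82e-06), and Npy were D1-enriched DEGs, which is 60% against 2.10% of all genes tested. Kit did not pass the test (0.060, SE 0.24, adjusted p = 0.930). Pvalb, Vip and Htr3a were too low to be tested, with means of 0.32, 0.35 and 0.086 CPM in D1 and 0.092, 0.030 and 0.017 CPM in D2 libraries. Markers of cholinergic interneurons, which carry the D2 receptor, went the other way, with a sum of 1.25 to 2.49 CPM in D1 and 6.74 to 8.58 CPM in D2 libraries, a ratio of 3.98 in favour of D2 (exact permutation p = 0.00216, adjusted 0.00563, Isl1 left out because it is also a D1-MSN marker). Slc5a7, the choline transporter, lay between 0.0289 and 0.451 CPM (median 0.310) and between 1.69 and 2.28 CPM (median 2.03) (2.81, SE 0.24, adjusted p = 1.32e-08). Chat, which makes acetylcholine, lay between 0.190 and 0.545 CPM (median 0.330) and between 1.57 and 2.09 CPM (median 1.71) (2.42, SE 0.20, adjusted p = 8.33e-09). Both genes and Slc17a8 (1.14, SE 0.24, adjusted p = 0.00302) were below the level threshold and so were not DEGs.

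Most markers of glia and vessels were low. The astrocyte sum was 45.9 to 59.8 CPM in D1 and 27.8 to 35.1 CPM in D2 libraries (exact permutation p = 0.00216, adjusted 0.00563), nearly all of it Slc1a2, a glutamate transporter (-0.82, SE 0.082, adjusted p = 1.71e-07), while Gfap, a defining filament protein of astrocytes, lay at 0.11 CPM in D1 and 0.12 CPM in D2 libraries, 9 of the 12 markers were too low to be tested, and Slc1a3 and Aldoc did not pass the test. The oligodendrocyte sum was 33.8 to 43.2 CPM in D1 and 36.2 to 52.4 CPM in D2 libraries (exact permutation p = 0.0260, adjusted 0.0563). In the F libraries this sum went the other way, with means of 52.1 CPM in D1 and 42.2 CPM in D2 libraries, a difference that was not tested. Mobp, a protein of myelin, was D2-enriched (0.46, SE 0.14, adjusted p = 0.0410) in groups that overlap, with a log2 fold change of 0.55 (adjusted p = 0.176) without the 6 libraries. The microglial sum was 14.9 ± 0.37 CPM in D1 and 14.8 ± 0.50 CPM in D2 libraries (SD, n = 6 each, exact permutation p = 0.621), with Tmem119, C1qa and Trem2 at 0.028, 0.019 and 0.041 CPM in D1 and 0.034, 0.016 and 0.026 CPM in D2 libraries. The endothelial and mural sum was 2.10 ± 0.82 and 1.82 ± 0.32 CPM (exact permutation p = 0.578). Without the 6 libraries the glutamatergic sum was 38.9 and 57.1 CPM in the 2 D1 libraries and 7.91 to 20.1 CPM in the 4 D2 libraries, and the cholinergic sum 1.37 and 2.49 CPM against 6.74 to 8.11 CPM. The GABA interneuron sum was then 23.2 and 26.7 CPM against 14.1 to 20.4 CPM, and the astrocyte sum 46.003 and 59.8 CPM against 28.9 to 35.1 CPM. The part of these cells in the DEGs named above was not tested.

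**Figure D4:**
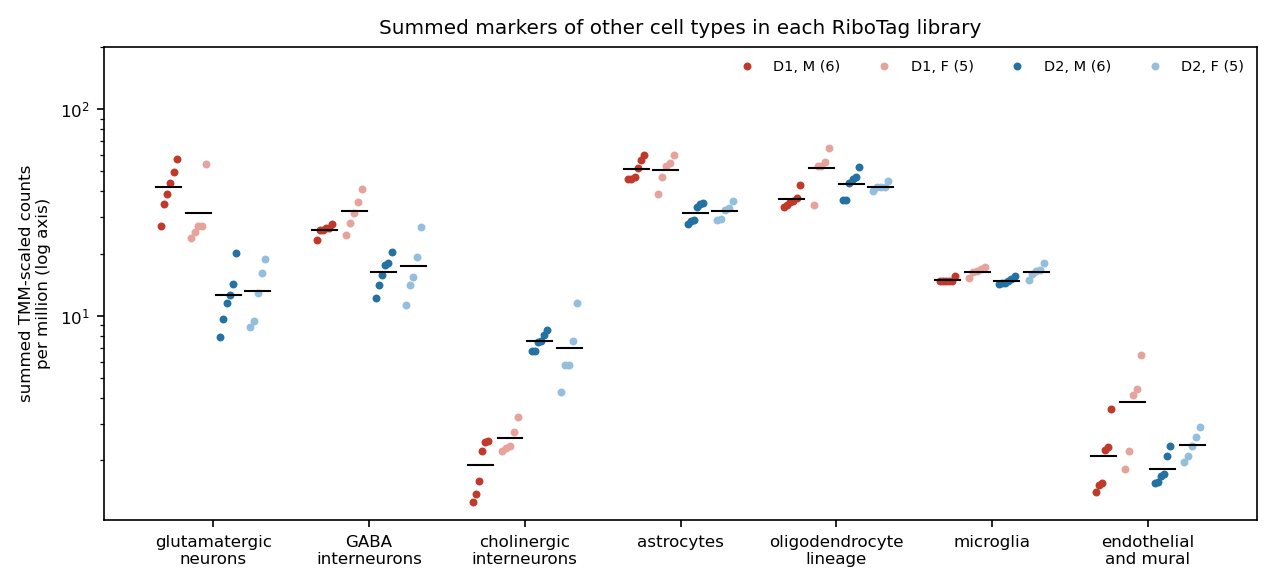
Summed TMM-scaled CPM (log axis) of the markers of 7 other cell types in each RiboTag library (points) with group means (bars), D1 and D2 libraries labelled M (6 each) and F (5 each). In the M libraries the D1 points lie above all D2 points for glutamatergic neurons, GABA interneurons and astrocytes and below all D2 points for cholinergic interneurons, while microglia lie near 15 CPM throughout.

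The F libraries, from other mice, gave a check on the DEGs. Of 11039 genes tested there, 130 were D1-enriched (1.18%) and 75 were D2-enriched (0.679%), 1.86% in all. Of the 225 D1-enriched M DEGs, 91 were D1-enriched DEGs in F as well, which is 40.4% of the M and 70.0% of the F DEGs. Of the 113 D2-enriched M DEGs, 55 were D2-enriched in F, which is 48.7% of the M and 73.3% of the F DEGs. None was a DEG in the opposite direction, and the sign was the same for 96.0% and 92.0% of the M DEGs, against 60.9% of the 10620 genes tested in both. Across the 338 genes, which are not independent replicates, the log2 fold changes had a Pearson r of 0.934. All 13 D1- and D2-MSN markers that were M DEGs were DEGs in F, with log2 fold changes of -1.90 (adjusted p = 1.63e-06) for Drd1, -2.95 (adjusted p = 7.17e-08) for Pdyn, 2.74 (adjusted p = 6.58e-13) for Drd2, 2.97 (adjusted p = 1.22e-08) for Adora2a and 2.62 (adjusted p = 2.08e-08) for Penk. So were P2ry1, Nt5e, Adk, Oprd1 and Nrxn2, with log2 fold changes of 2.24 (adjusted p = 2.09e-07), 1.58 (adjusted p = 0.00022), 0.61 (adjusted p = 0.0106), 1.85 (adjusted p = 1.22e-08) and 0.62 (adjusted p = 4.56e-06).

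Some M DEGs had small log2 fold changes in F. Oprl1, Nefm, Zfhx3 and Cpne4 had F log2 fold changes of -0.070 (adjusted p = 0.899), -0.043 (adjusted p = 0.959), 0.069 (adjusted p = 0.853) and -0.14 (adjusted p = 0.614). Other named M DEGs kept their sign in F without passing the test there. Among them were Rgs10 (0.36, adjusted p = 0.182), Adcy2 (-0.45, adjusted p = 0.0684), Kcnj3 (-0.24, adjusted p = 0.573) and Kcnc2 (-0.43, adjusted p = 0.335). The same held for Nefl (-0.31, adjusted p = 0.227), Satb1 (-0.66, adjusted p = 0.150), Nrp2 (-0.24, adjusted p = 0.515), Rxrg (0.28, adjusted p = 0.313) and Ntng2 (-0.99, adjusted p = 0.0861). Mobp, higher in D2 among the M libraries, had an F log2 fold change of the other sign that did not pass the test, -0.28 (adjusted p = 0.492). A test of the difference between the M and F contrasts (the interaction of cell type and sex label) called 0 of 10724 genes with edgeR at an adjusted p of 0.05, and DESeq2 called 0 as well. At an unadjusted p under 0.05 there were 733 genes with edgeR and 635 with DESeq2. Since 6 of the M libraries carry more Xist than Y counts, this test compares labels.

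**Figure D5:**
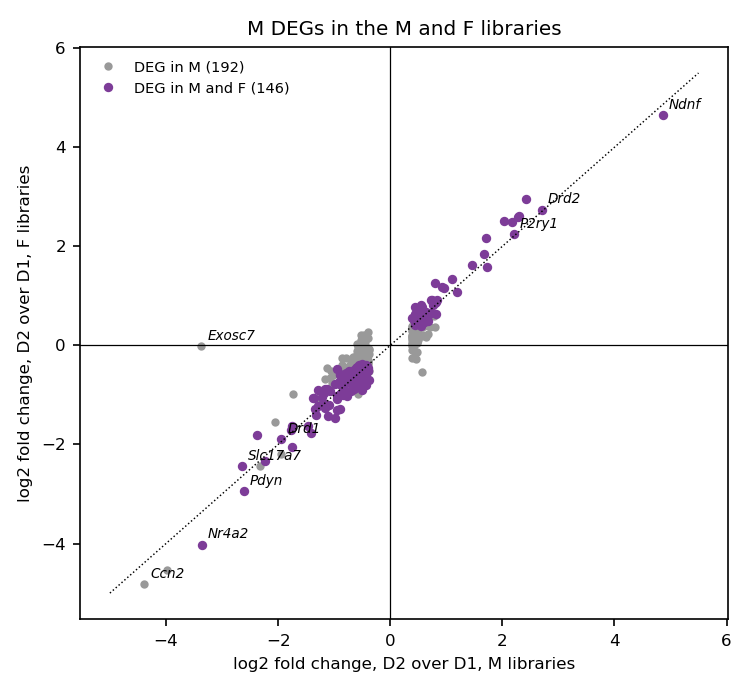
Log2 fold change (D2 over D1) in the F libraries against that in the M libraries for the 338 M DEGs, 146 of them DEGs in F in the same direction (purple) and 192 not (grey), with a dotted line where they are equal. Most points lie along the line, and Exosc7 stands off it, at -3.38 in M and -0.0096 in F.

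Exosc7, an RNA exosome subunit looked at after its values were seen, was a D1-enriched DEG (-3.38, SE 0.96, adjusted p = 0.0280) on the strength of 1 library. D1 replicate 4 lay at 64.3 CPM and the other 5 D1 libraries at 0.90 to 1.33 CPM, in the range of the D2 libraries (0.74 to 1.78 CPM). Without D1 replicate 4 its log2 fold change was 0.15 (adjusted p = 0.769).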

How the data were processed

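Ribosome-associated RNA was measured in 12 RiboTag libraries labelled male and 10 labelled female. Per the study's methods, the authors made ribosome-depleted, stranded, paired-end libraries, aligned the reads to GRCm38 with HISAT2 2.0.5, and used featureCounts (version not given in the sources used here) on Ensembl genes to give the deposited raw counts per gene. The whole gene body was counted, without strand and with reads given to every overlapping gene, and reads that align to several places were left out, so introns add to the values and overlapping genes share reads. The 27 other sample columns of the table were not used. Of 52636 gene identifiers, 52489 matched the GENCODE annotation. Promoter windows of 250 bases were read from RefSeq on GRCm38.p6.

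Genes with more than 1 CPM in at least 2 libraries were tested with edgeR 4.0.16 (R 4.3.3), with TMM, the quasi-likelihood test and Benjamini-Hochberg adjustment over all genes tested, and the steps were tested on simulated data. A DEG had an adjusted p of at most 0.05, a log2 fold change beyond 0.38 and a mean level above that of the lowest 25% of tested genes. Summed marker levels were compared by an exact permutation test of the 6 against 6 libraries, two-sided. Isl1 was left out of the cholinergic sum, and Gpr52 and Ntn3 found no match. Depth was 24076900 to 43089000 counts in the M libraries, and no 2 libraries agreed within sampling noise. Nothing in the labels shows separate litters or days, but the study's methods state a different mouse for each library.

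Named genes were all D1- and D2-MSN markers, the DEGs of each list (up to 8 by size of the log2 fold change) with up to 4 members of the highest mean count, and the 15 largest D1- and D2-enriched protein-coding DEGs whose libraries did not overlap. The members and gene lists were chosen with earlier results of these data known. The lists of purinergic, opioid, and deep cortex and claustrum genes, the alternatives that rest on Xist, and the genes Exosc7, Ttc12, Rpl22, Cartpt, Nts, Ret and Gnai1 were chosen after the values were seen, and genes named only by a count or a mean come from their lists. The alternatives were DESeq2 1.42.0, its size factors, library sizes without genes of more than 1% of counts, other filters and thresholds, a replicate block, a fit of all 22 RiboTag libraries and leaving out each library. Some genes that the rule names are not reported here.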

Additional observations from a re-analysis of the deposited data

Results flagged for a closer look

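In 32 of the 382 groups of 6 libraries looked at, 1 in each cell type for each reported named gene, each summed list, the total count and the number of genes with a count, the highest or lowest library lay further from its nearest neighbour than Dixon's 95% limit allows, and chance flags about 1 in 20 groups. D1 replicate 1 accounted for 9 of these and D2 replicate 3 for 7. Values are in CPM, each against the nearest other library of its group.

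D1 replicate 1 stood below the other D1 libraries for Chga (20.8 against 27.3), Map2 (208 against 234), Oprm1 (11.5 against 15.5), Pde1a (22.8 against 28.8) and Ywhah (52.0 against 63.3). It stood above them for Cntnap2 (60.5 against 45.5), Grm5 (84.6 against 74.5), Kcnd2 (48.5 against 39.2) and the summed oligodendrocyte markers (43.2 against 37.2). D2 replicate 3 stood above the other D2 libraries for Kcnj3 (6.93 against 5.04), Nefl (44.4 against 29.7), Nefm (113 against 63.1) and Pdyn (6.67 against 4.92). It stood below them for Epha4 (32.1 against 36.8), Penk (632 against 702) and Zfhx3 (9.63 against 13.5).

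The widest of these gaps was Exosc7 in D1 replicate 4 (64.3 against 1.33). D1 replicate 6 was high for Gnb4 (8.76 against 5.99), Id4 (21.2 against 15.2) and the summed microglial markers (15.6 against 14.8), and low for Ankk1 (0.252 against 0.569) and Cux2 (4.97 against 6.43). D1 replicate 2 was high for P2ry1 (3.48 against 2.38). D1 replicate 3 was high for Cpne4 (6.95 against 5.79) and low for Myt1l (80.8 against 91.4). D1 replicate 5 was low for Egr1 (11.9 against 19.3) and high for Ndnf (0.886 against 0.551). Among D2 libraries, replicate 1 was low for Cpe (32.5 against 34.8), replicate 2 was high for Foxp2 (24.02 against 20.8), and replicate 5 was high for Slc17a8 (2.04 against 1.30), Sv2b (32.3 against 25.1) and Vxn (5.02 against 2.69).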

How the results depend on the processing

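The M counts of 225 D1-enriched and 113 D2-enriched DEGs became 452 and 229 with no filter on low counts, 111 and 64 with an FPKM filter, which left fewer genes to test, and 547 and 357 with neither a fold change nor a mean count threshold. Within the 6 libraries that carry more Xist than Y counts (4 D1 against 2 D2) there were 141 D1-enriched and 91 D2-enriched DEGs, and without them the D1-enriched share of calls was 52.6% against 66.6%. The cause of that shift was not tested. Leaving out 1 library at a time gave 197 to 250 D1-enriched and 99 to 162 D2-enriched DEGs in M, and 103 to 152 and 59 to 77 in F. The F counts of 130 and 75 became 336 and 159 with no filter, 225 and 166 with no thresholds, and 83 D1-enriched with the FPKM filter. The interaction called 0 to 1 genes when single libraries were left out. With dominant genes left out of the library size, the oligodendrocyte sum differed by 47.7 CPM of the other counts at an adjusted p of 0.0260 (exact permutation test). In the F libraries the means of that measure lay the other way, at 322 in D1 and 255 in D2 libraries, which was not tested. DESeq2 gave 218 and 115 M DEGs and its size factors 220 and 115.

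The deviations of same-numbered D1 and D2 libraries from their groups had correlations from -0.065 to 0.11, and only those of number 2 correlated best with their own number. Correlations this weak cannot show whether same-numbered libraries shared a day or a batch. The fit with the replicate number as a block gave 220 and 112 M DEGs, of which 217 and 106 were DEGs without it. For the F libraries and for the interaction no such block could be fitted, because the F columns carry no numbers that match the labels.

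Among named genes, changes of sign were near 0 for most. Peg3 turned to 0.0032 with dominant genes left out, 0.0045 with no filter, 0.021 within the Xist-carrying libraries and 0.0088 with Xist status as a covariate. Kit turned to -0.027 under the replicate block, -0.37 within those libraries and -0.12 with the covariate, and Ddx3y to -0.055 with the covariate. Without the Xist-carrying libraries the log2 fold changes were -0.019 for Map2, 0.086 for Cplx2, 0.034 for Cux2, -0.031 for Cnp, -0.010 for Cx3cr1, -0.26 for Ddx3y, -0.023 for Kdm5d and 0.25 for Exosc7. Within them they were -0.0039 for Dpp6, 0.049 for Cntn1, 0.073 for Gda, 0.0041 for Hspa8, 0.035 for Hsp90aa1 and 0.052 for P2ry12. When single libraries were left out, the sign turned in 7 genes, of which 6 had log2 fold changes from -0.044 to 0.018 for Cplx2, from -0.32 to 0.20 for Kit, from -0.035 to 0.017 for Peg3, from -0.025 to 0.18 for Slc1a3, from -0.057 to 0.10 for Egr1 and from -0.059 to 0.024 for Gda. The Exosc7 log2FC ran from -3.63 to 0.15 and turned without D1 replicate 4 only.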

Other observations

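Some named DEGs are not described above. Fig4, a phosphoinositide phosphatase and 1 of the 15 largest non-overlapping D2-enriched genes, lay between 4.37 and 7.70 CPM (median 6.80) in D1 and between 9.46 and 13.7 CPM (median 11.5) in D2 libraries (log2 fold change 0.84, SE 0.10, adjusted p = 4.33e-06). Ephb6, an ephrin receptor without kinase activity, was D1-enriched (-0.65, SE 0.13, adjusted p = 0.00232). Without the 6 libraries with more Xist than Y counts Ephb6 no longer passed the test, with a log2 fold change of -0.45 (adjusted p = 0.277). Kcnh7 and Kcnmb4, a potassium channel and an auxiliary subunit, were D1-enriched with log2 fold changes of -0.58 (SE 0.10, adjusted p = 0.000523) and -0.51 (SE 0.11, adjusted p = 0.00308), and without those 6 libraries Kcnmb4 had a log2 fold change of -0.58 (adjusted p = 0.0599).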
